A study of Mus musculus with 2 samples.

Results

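Differentially methylated regions that lie deep inside very long genes were taken from a comparison of bisulfite-converted DNA of 2 mouse adipose progenitor libraries. A region was included when it lay on chromosomes 1 to 19, inside a protein-coding gene of at least 500 kb, and more than 2 kb from both ends of that gene. The rule used position only and no measured value. It found 2222 of the 34139 regions on the list. The genes long enough numbered 215, between 502 and 2271 kb, and 4 of them held no such region. The libraries came from C57BL/6 adipose tissue, with 1 library of CD137+ cells and 1 library of PDGFRα+ cells. CD137 is a tumour necrosis factor receptor family protein linked to beige fat precursors, and PDGFRα is a growth factor receptor found on fat progenitors in general. Both populations had been isolated with magnetic beads from subcutaneous or visceral fat, cultured, taken through adipogenic differentiation and given dexamethasone (DEX), so that treatment is shared and no untreated library was compared. Which depot each library came from, and how many mice, is not given in the labels. The list holds no levels by which the sorted cell types could be checked against their markers.

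Genes of this size are almost all intron. Many encode adhesion molecules, receptors and channels of the nervous system, others encode transcription factors whose introns carry distant regulatory elements, and several span common fragile sites, places where chromosomes break when replication is slowed. Methylation of cytosine at CpG dinucleotides is usually high through gene bodies and low at active promoters and enhancers, so a difference inside a long intron is often looked at as a possible regulatory element. The annotation used here gives gene starts and ends but no exons, so that no region could be placed in an exon, an intron or an untranslated region.

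Each region carries a signed score set by the authors. Which direction the sign stands for is not stated. The list is titled with the PDGFRα+ sample before the CD137+ sample, and were the second subtracted from the first, regions below 0 would be less methylated in the PDGFRα+ cells. Scores are therefore called negative or positive only. The score grows with the width of a region, gives no methylation level and no read depth, and is used here only to describe and rank regions. Each group is a single library, which leaves no spread between replicates and no test of any difference between the libraries. Intervals given below are 95% intervals for the counting of regions only (Wilson for shares, exact Poisson for densities), and regions are not replicates.

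A few listed start sites of long genes lie far inside the gene body, and these are the places where sequence could be set beside a region. RefSeq (GRCm38.p6) listed 271 start sites for the very long genes, of which 121 lay in the interior, in 76 genes. Regions overlapped 10 of these 121 start-site windows, each reaching from 250 bases before to 50 bases after a start. The 4 shown here are internal starts far from the gene's own beginning. They were picked after their values were seen, because they join a signed region to a named promoter, and are given each as the 250 bases before the start, 5′ to 3′ on the plus strand, with the bases inside the region in capitals.
Cntn4, chr6:106118692-106118941: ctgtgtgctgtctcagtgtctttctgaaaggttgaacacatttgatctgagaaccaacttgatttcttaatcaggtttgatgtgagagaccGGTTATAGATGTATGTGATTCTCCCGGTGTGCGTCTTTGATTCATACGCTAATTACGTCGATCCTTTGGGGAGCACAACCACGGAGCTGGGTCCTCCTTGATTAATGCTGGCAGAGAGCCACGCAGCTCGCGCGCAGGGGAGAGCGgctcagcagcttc
Dab1, chr4:104367288-104367537: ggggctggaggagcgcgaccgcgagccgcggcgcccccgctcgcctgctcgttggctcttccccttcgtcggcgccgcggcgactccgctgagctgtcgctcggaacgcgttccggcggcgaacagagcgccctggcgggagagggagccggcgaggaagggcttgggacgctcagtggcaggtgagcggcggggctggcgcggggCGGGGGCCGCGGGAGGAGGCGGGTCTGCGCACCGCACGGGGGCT
Anks1b, chr10:90576441-90576690: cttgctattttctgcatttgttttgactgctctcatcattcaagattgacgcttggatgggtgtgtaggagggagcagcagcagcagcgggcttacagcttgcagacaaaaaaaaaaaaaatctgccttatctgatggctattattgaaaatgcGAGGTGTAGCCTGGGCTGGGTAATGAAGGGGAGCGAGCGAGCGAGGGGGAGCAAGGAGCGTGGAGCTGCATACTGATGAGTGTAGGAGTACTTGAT
Pde4b, chr4:102421305-102421554: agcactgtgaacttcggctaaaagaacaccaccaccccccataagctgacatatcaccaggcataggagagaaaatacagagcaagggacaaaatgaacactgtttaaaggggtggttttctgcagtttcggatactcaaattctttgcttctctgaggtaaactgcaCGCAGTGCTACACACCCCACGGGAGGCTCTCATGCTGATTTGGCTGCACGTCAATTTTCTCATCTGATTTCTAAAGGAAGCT

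All 4 of these promoters, picked with their values known, carried a negative region, in a set where 69.4% of the 2222 regions were negative. Cntn4 encodes contactin 4, an adhesion molecule of axons, and its internal start lies 441 kb into the gene. A region of 146 bp (score -115) lay wholly within the 250 bases and took in 11 of their 12 CG dinucleotides. A neighbouring region of 313 bp (score -80.9) overlapped 52 of the 250 bases before a further listed Cntn4 start just upstream, without reaching that start. Dab1 encodes the adaptor of the reelin receptors. Its internal promoter, 748 kb into the gene, was the richest of the 4 in CG, with 40 in 250 bases, a number reached by 1.31% of the 32851 listed windows (median 6). The Dab1 region scored -131 and overlapped 44 of those bases. Anks1b encodes a synaptic scaffold protein, and a region of 120 bp (score -49.8) covered 96 bases before a start 704 kb into the gene. A second Anks1b region (score -32.9) overlapped 64 of the 250 bases before another start less than 1 kb upstream. Pde4b encodes a phosphodiesterase that breaks down cyclic AMP, and its region of 89 bp scored -40.4, at a start 334 kb into the gene. Mgat4c, a glycosyltransferase gene, had a negative region at 2 adjoining starts (-39.7). Positive regions lay at starts of Nfia and Sox6, both transcription factor genes. They scored 99.0 and 102, at starts only 3.88 and 9.73 kb from the 5′ end of the gene. Of regions at starts of other genes nested in a long gene, 1 lay at Insyn2a inside Dock1 (-46.5) and 1 at Gm32694 inside Nav2 (-205). In all, 11 of the 2222 regions touched any listed window. The share of all listed windows that a region overlaps was not computed, so these counts cannot be read as high or low. A match of positions does not show that a promoter is in use in these cells.

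The interiors of very long genes held fewer regions per length than those of shorter genes, and the longest held the fewest. Pooled over the 215 genes there were 1.24 regions per 100 kb (interval 1.19 to 1.30) in 178.7 Mb. Protein-coding genes under 500 kb had 1.83 (1.80 to 1.86), so that the very long genes stood at 0.678 times that density. The gap to the rest of the autosomes together (1.38) was smaller, with a ratio of 0.898. Against the autosomes outside protein-coding genes the ratio was 1.11. By length class, density rose from 1.55 in genes under 50 kb to 1.75 in genes of 50 to 100 kb. The value was highest in genes of 100 to 200 kb (2.02) and of 200 to 500 kb (1.97). It then dropped to 1.44 (1.37 to 1.52) in the 160 genes of 500 to 1000 kb and to 0.956 (0.886 to 1.03) in the 55 genes over 1000 kb. The last value was below that of the autosomes outside protein-coding genes, 1.12 (1.10 to 1.13). The 3 genes just over 500 kb, Edil3, Samd12 and Dock1, had between 0.60 and 1.20 regions per 100 kb, and the 3 just under it, Dnm3, Lrrc7 and Cacna1e, had 4.07, 1.22 and 1.84. Where a stretch lay in several genes it was counted with the longest. CpG content and read coverage, which limit where a region can be called, are not in the list, and their part in this order was not tested.

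**Figure D1:**
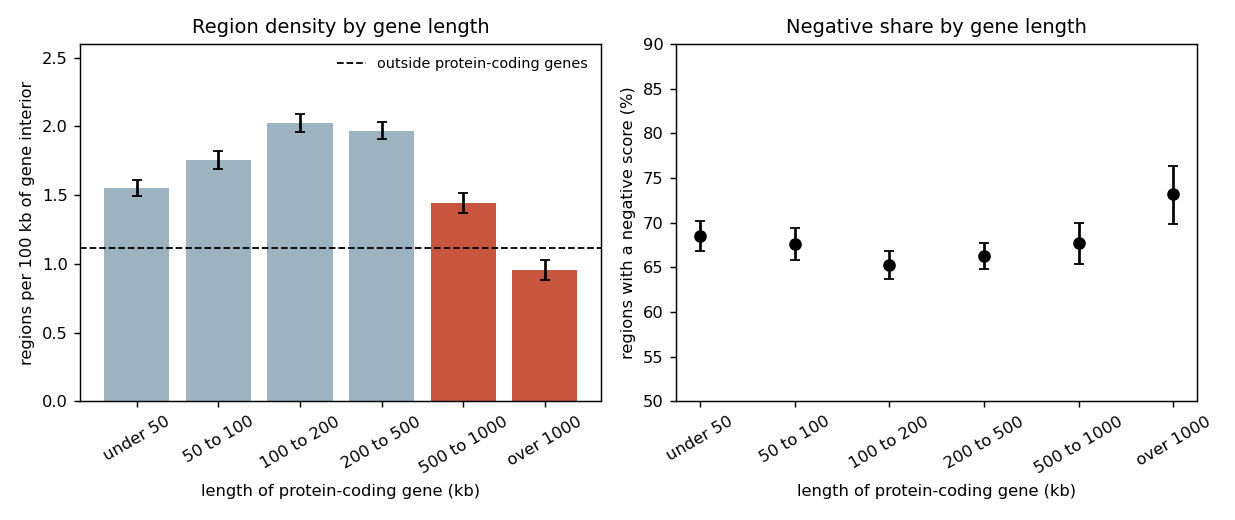
Left, regions per 100 kb of gene interior by length of protein-coding gene (bars, with exact Poisson 95% intervals), with genes of 500 kb or more in red and the density outside protein-coding genes as a dashed line. Right, percent of regions with a negative score (points, with Wilson 95% intervals). Density drops from 1.97 at 200 to 500 kb to 0.956 over 1000 kb, and the negative share is highest, 73.2%, in the longest class.

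Negative regions made up 1543 of the 2222, or 69.4% (67.5 to 71.3), against 67.3% of all autosomal regions, and 679 were positive. The share was 67.7% (65.3 to 70.0) in genes of 500 to 1000 kb and 73.2% (69.8 to 76.4) in genes over 1000 kb. It was 66.8% (66.0 to 67.6) in protein-coding genes under 500 kb. Regions of absolute score 100 or more were scarcer than elsewhere, with 256 of 2222, or 11.5% (10.3 to 12.9), against 15.6% of all autosomal regions and 16.3% in shorter genes. Negative regions had a median width of 113 bp and a median absolute score of 46.6, and positive ones 101 bp and 44.1. Only 178 regions (8.01%) also lay in another gene, 149 of them in a long noncoding RNA gene and 25 in a smaller protein-coding gene. A further 25 regions lay within 2 kb of an end of one of these genes, outside the rule, and 19 of those were negative. Over all protein-coding genes, 2322 regions were counted as within 2 kb of an end, 62.4% of them negative. That count leaves out regions near the end of one gene that lie in the interior of another.

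Genes differed widely in density. The median gene had 1.04 regions per 100 kb (quartiles 0.517 and 1.91), and the highest had 5.31. A gene is called rich here when it reached 2 times the pooled density (2.49 per 100 kb) and poor when it had regions but no more than 0.5 times the pooled density (0.622). By that measure 29 genes (13.5%) were rich, 121 lay in the middle, 61 were poor and 4 were empty. Among protein-coding genes of 200 to 500 kb, 29.1% reached the same rich density. The 29 rich genes took up 10.5% of the summed gene length and held 29.3% of the regions. The 61 poor genes took up 31.6% of the length and held 9.54%. Among them Gm37013, Gm38666 and Gm38667 are overlapping gene models that share the same 3 regions. They were counted as separate genes in these counts and in the summed length. Regions of rich genes were 64.8% negative (61.1 to 68.4) and 14.7% strong, meaning an absolute score of 100 or more, and those of poor genes were 74.5% negative (68.3 to 79.9) and 6.13% strong. Rich genes had a median length of 604 kb, poor genes of 874 kb. Across the 215 genes the rank correlation of density with length was -0.20, given as a description, since the points share both libraries.

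**Figure D2:**
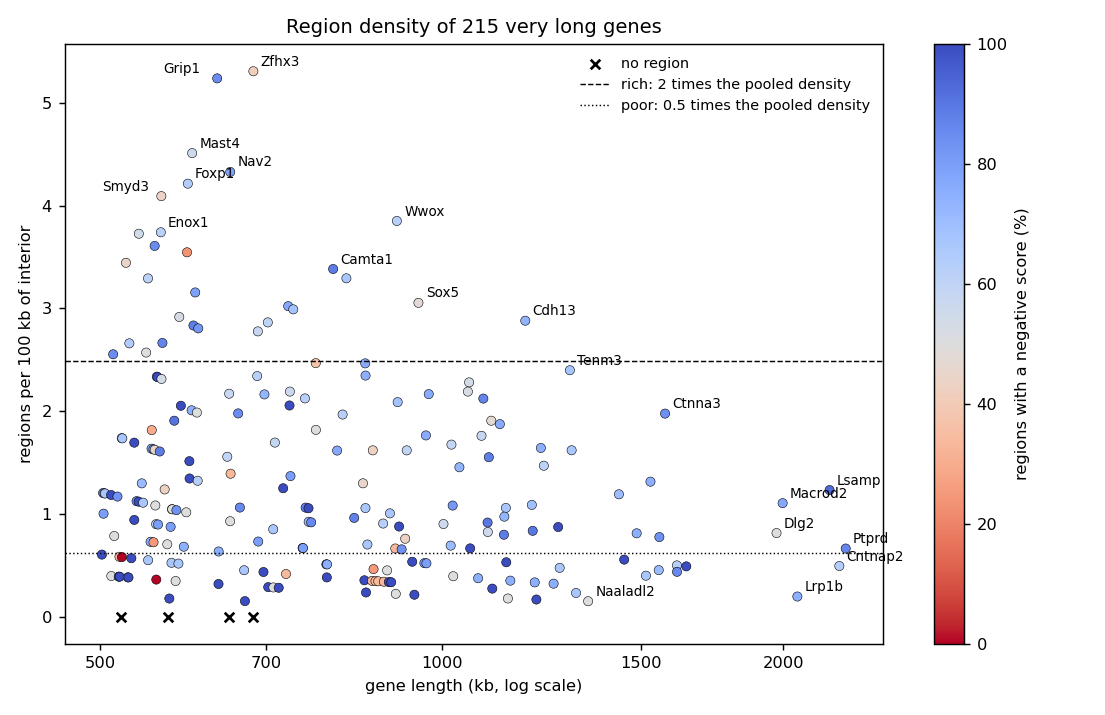
Each point is 1 of 215 very long genes, by length (kb, log scale) and regions per 100 kb of interior, coloured by the percent of its regions with a negative score (blue, negative; red, positive), with genes without a region as crosses. The densest genes, Zfhx3 (5.31) and Grip1 (5.24), are under 1000 kb long, and of the genes over 1000 kb only Cdh13 (2.88) lies above the rich line.

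Zfhx3, which encodes a zinc finger homeobox transcription factor, was the densest gene and had the most regions. It spans chr8:108279311-108961636 and held 36 regions, or 5.31 per 100 kb (3.72 to 7.35), 21 of them positive. Its signs were not mixed evenly. A run of 14 positive regions in a row covered 91.7 kb (chr8:108699579-108791303), beginning 420 kb from the 5′ end, and its strongest members scored 337 and 281. The strongest negative regions of Zfhx3 stood nearer the 3′ end, with scores of -293 at 581 kb and -431 at 677 kb. One negative (-202) and one positive region (114) also lay in Lncbate1, a noncoding RNA gene inside Zfhx3. The 500 kb on either side of Zfhx3 were dense as well, at 4.3 regions per 100 kb.

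Grip1, which encodes a scaffold protein for glutamate receptors, came next, with 33 regions (5.24 per 100 kb, 3.61 to 7.36) and the opposite balance, 28 negative. Its first 18 regions from the 5′ end were all negative and spread over 267 kb. Mast4, a microtubule-associated kinase gene, had 27 regions (4.51), 15 of them negative. Of its 12 positive regions 8 lay within 156 kb of the 5′ end, and a run of 6 negative regions covered 61.6 kb near the 3′ end. Nav2, a gene of neurite outgrowth, had 28 (4.33), 22 negative, the strongest of them the region at the nested Gm32694 start. The next 3 in density were Foxp1 (4.21), Smyd3 (4.09), which encodes a lysine methyltransferase, and Wwox (3.85), an oxidoreductase gene at a fragile site.

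Foxp1, which encodes a forkhead repressor, had 25 regions, 16 negative and 9 positive. Its strongest region was positive, with a score of 472 over 532 bp at chr6:99335377-99335908, 187 kb from the 5′ end. A run of 5 positive regions lay 457 to 502 kb from the 5′ end, led by a region of 803 bp with a score of 285. The negative regions of Foxp1 were weaker, down to -193.

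The rest of the 15 densest genes had between 3.29 and 3.74 regions per 100 kb. Enox1, a cell surface oxidase gene, had 21 regions, 13 negative. Nfia, a nuclear factor I gene whose product acts in brown fat, had 20 regions, 11 negative, and its strongest, -363 over 708 bp, lay 4.87 kb from the 5′ end between weaker positive ones. Mecom, a zinc finger transcription factor gene, had 17 of 20 negative and a run of 10 negative regions over 208 kb. Camta1, which encodes a calmodulin-binding transcription activator, had 24 of 27 negative, with a run of 12 over 157 kb and a strongest score of -339. Npas3, a basic helix-loop-helix gene, had 18 of 27 negative, and Rad51b, a recombination repair gene, 11 of 18. St6galnac3, a sialyltransferase gene, was nearly even with 10 of 18 positive.

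Frmd4a, a cell polarity scaffold gene, had the largest positive share of the 15 densest genes. Of its 21 regions (3.54 per 100 kb) 16 were positive, and 10 positive regions followed each other over 239 kb (chr2:4270135-4508660). The strongest scored 152. On either side of that run lay 3 and 2 negative regions, the weakest of these -27.1 and the strongest -52.5.

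**Figure D3:**
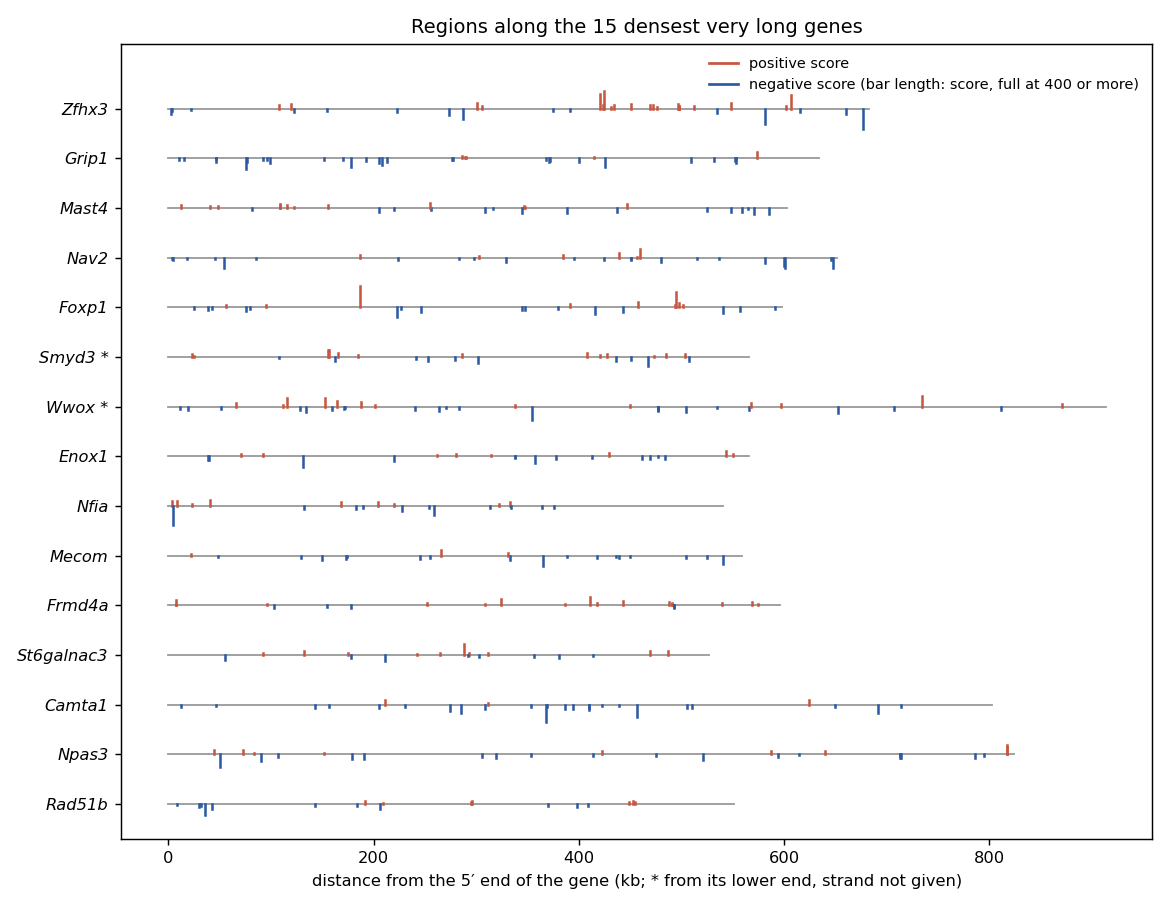
Regions along the 15 densest very long genes, by distance from the 5′ end in kb (from the lower end for the 2 genes marked with a star, whose strand is not given). Bars up (red) are positive and bars down (blue) negative, with bar length set by the score up to 400. Zfhx3 shows its run of 14 positive regions, Grip1 opens with 18 negative regions and Frmd4a is mostly positive.

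Positive majorities were uncommon. Of 156 genes with at least 5 regions, 132 had more negative than positive regions, 16 (10.3%) had more positive and 8 were even. Among genes of 200 to 500 kb with at least 5 regions, 20.8% had a positive majority. Besides Zfhx3, Frmd4a and St6galnac3 the 16 genes were Smyd3 (13 of 23 positive), Sox5 (15 of 29), Nav3 (12 of 19), Auts2 (11 of 21), Hdac9 (8 of 14), Thsd4 (7 of 10), Rarb (6 of 9), Dlgap1 (6 of 11), Nbea (5 of 9), Sox6 and Cdh18 (4 of 7 each), and Cadps2 and Dpp6 (4 of 6 each). Those of them outside the naming rule were named after their values were seen. Among the 17 genes of the transcription and chromatin list with at least 5 regions, 7 had a positive and 10 a negative majority. Auts2, a chromatin regulator gene, had 8 positive regions in a row, with scores up to 333.

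Genes with regions of a single sign were about as common as among shorter genes. With at least 5 regions, 19 of 156 genes (12.2%) had negative regions only and 0 had positive regions only, against 11.6% and 1.05% of the genes of 200 to 500 kb (12.6% for either sign). The fullest were Schip1 with 13 regions over 358 kb, Clstn2 with 12, Agbl4 with 11, and Sorcs1, Lpp and Exoc4 with 9 each. Iqschfp, with 15, is a longer gene model that contains Schip1 and shares its regions, so these 2 of the 19 are not separate. Clstn2 encodes a calsyntenin of synapses, Sorcs1 a sorting receptor, Lpp a focal adhesion protein and Exoc4 a subunit of the exocyst, which tethers secretory vesicles. Exoc4 had 1 strong region (-314 over 672 bp), and Agbl4, a carboxypeptidase gene, 1 of -234. Sorcs3, Mdga2, Nckap5 and Csmd1 had 8 negative regions each, and L3mbtl4, Foxp2 and Galntl6 had 6. Iqcm, Dgkb and Sntg1 had 5 each. Foxp2, a relative of Foxp1, had 4 of its 6 regions between 285 and 287 kb from its lower end. With regions less than 1 kb apart merged, Foxp2 had 3 regions (0.56 per 100 kb) and would fall below the 5 needed here. Lsamp, an adhesion molecule gene of 2197 kb, was close to this set with 25 of 27 negative and held a run of 18 negative regions over 1487 kb.

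The 10 largest absolute scores lay in 8 genes, and 114 of the 215 genes held at least 1 region of absolute score 100 or more. The largest score, 2903 over 2072 bp at chr3:55782347-55784418, lay inside Nbea, which encodes a protein of membrane trafficking, and also in Mab21l1, a small developmental gene nested in it. Regions with scores of 637 and 268 flanked it, and these opened a run of 4 positive regions over 37.0 kb, while the other 6 regions of Nbea had absolute scores of 79.9 or less. Tenm3, a teneurin adhesion gene, had a region of -509 over 701 bp (chr8:48595991-48596691) and a further one of -282. Sox5, which encodes a cartilage and neural transcription factor, had a region of -438 and one of 342 close together, 949 and 922 kb from its 5′ end. Opcml, an adhesion molecule gene of middling density (0.80), had a single outstanding region of -347 over 489 bp.

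Of the 10 longest genes none was rich. Ptprd, a receptor tyrosine phosphatase gene and the longest at 2271 kb, had 15 regions (0.66 per 100 kb, 0.37 to 1.09), 13 of them negative. Cntnap2, a neurexin-like adhesion gene, had 11 in 2241 kb (0.49). Lsamp (1.23), Macrod2 (1.10), Ctnna3 (1.98) and Dlg2 (0.81) lay in the middle group. Lrp1b, an LDL receptor family gene, had only 4 regions in 2058 kb (0.19, 0.05 to 0.50). Csmd1 (0.49), Nrxn3 (0.44) and Fhit (0.50) were poor. Ctnna3, which encodes an alpha catenin, stood out among them with 31 regions, 26 negative, 7 of them in 1 stretch of 100 kb.

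Empty genes were rare and not the longest. Galnt13, a glycosyltransferase gene of 682 kb, Cntnap5c (649 kb), Rabgap1l (574 kb) and Skint5 (522 kb) had no region more than 2 kb from their ends. Rabgap1l had a negative region (-109) within 2 kb of its 5′ end, so that with no margin 3 genes were empty. With the 2 kb margin the 4 empty genes were 1.86% of the 215, against 7.13% of genes of 200 to 500 kb. A shorter gene has less length in which a region can lie, and gene length was not allowed for. Of all protein-coding genes with an interior, 31.7% held at least 1 region. Skint5 belongs to a family of closely related neighbouring genes, and whether reads could be placed there is not known. The flanks of Galnt13, Cntnap5c and Skint5 were thin too, with 4 or 5 regions in 1000 kb each, whereas those of Rabgap1l had 10. Naaladl2 (2 regions in 1346 kb), Gabrg3 (1 in 671 kb), Csmd3 (2 in 1212 kb) and Zfp804b (1 in 575 kb) were nearly empty. These genes were named after their values were seen.

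Density inside a gene went with the density around it. In the 500 kb on either side, rich genes had a median of 2.3 regions per 100 kb (0.8 to 4.3), middle genes 1.3 and poor genes 0.6 (0.1 to 2.3). Over the 215 genes Spearman's rho between inside and flank density was 0.67 and Pearson's r 0.60. This is a description across genes of the same 2 libraries, some of which are neighbours. Of the 29 rich genes, 25 were denser inside than in their flanks, which the choice of rich genes favours. Nfia, Mecom, Frmd4a and Nav2 were 3.5 per 100 kb or denser inside with 1.0 or less around them, whereas Camta1 (3.38 inside, 3.2 around) and Cdh13 (2.88 and 3.1) matched their surroundings. The share of negative regions was less tied to the surroundings, with rho = 0.17 over 141 genes that had at least 5 regions both inside and in the flanks.

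**Figure D4:**
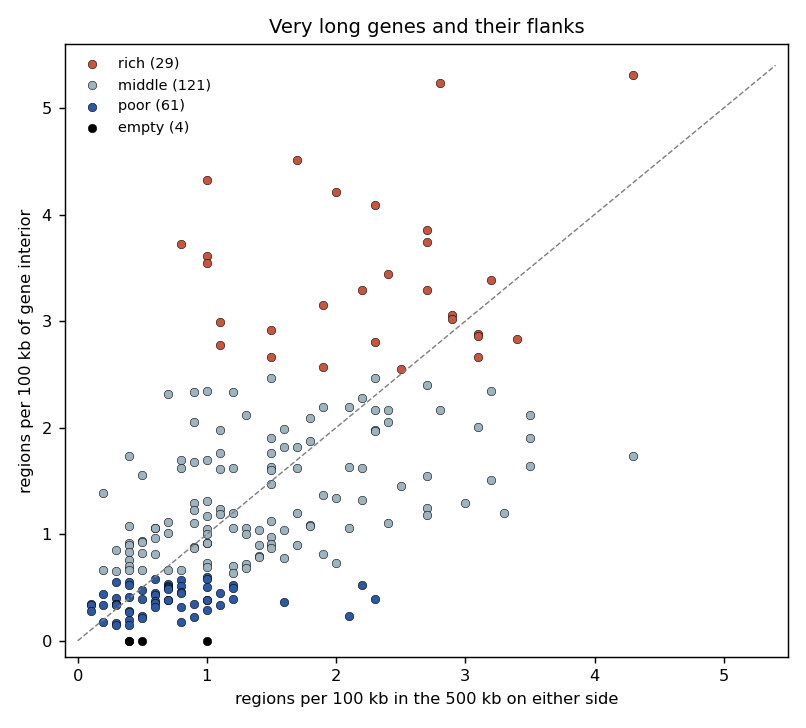
Regions per 100 kb inside each of 215 very long genes (vertical axis) against regions per 100 kb in the 500 kb on either side (horizontal axis), coloured by density group, with the line of equal values dashed. Points lie along the diagonal (rho = 0.67), with most rich genes (red) above it.

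Of the 12 gene lists, very long transcription and chromatin genes had the highest median density. Several lists of neural and adhesion genes had low ones, and so did the matrix and glycosylation list. Of 18 transcription factor and chromatin genes 8 were rich, 9 middle and 1 poor (Zfp804b), with a median of 2.33 regions per 100 kb against 1.04 for all 215 genes. Besides Zfhx3, Foxp1, Nfia, Mecom, Camta1, Npas3 and Sox5 the rich ones included Esrrg (3.15), an orphan nuclear receptor gene. Their 313 regions were 61.0% negative (55.5 to 66.3). The list also holds Nav3, a cytoskeletal gene, and Lpp, and lacks Smyd3. Without Nav3 and Lpp, left out after the values were seen, 8 of 16 were rich with a median of 2.62. The list of adipose, bone, limb and mesenchymal genes, which shares 9 very long genes with it, had 6 of 20 rich and a median of 1.83. Ppargc1a, a coactivator of brown fat and mitochondrial genes that was singled out after its values were seen, had 13 regions (1.98), 11 of them negative in a row over 608 kb with a strongest score of -241. The 2 positive ones stood nearest its 5′ end. The lists were chosen with earlier results of these data known, and no test of a list was made.

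Synaptic and neural adhesion genes numbered 27, with 1 rich, 13 middle, 12 poor and 1 empty and a median of 0.66. Their 262 regions were 78.2% negative (72.9 to 82.8). Tenm4 was the rich one (2.99), followed by Tenm3 (2.40) and Sdk1 (2.16), and Cntnap5c was empty. With regions less than 1 kb apart merged, Tenm4 had 2.31 and no longer reached the rich density of 2.35. Ion channel and receptor genes had a median of 0.68, with 1 of 18 rich, the calcium channel gene Cacna1c (2.80), ahead of Cacna2d3 (1.97) and the potassium channel gene Kcnma1 (1.69). Axon guidance genes had a median of 0.77, led by Slit3 (2.92), Robo1 (1.67) and Dcc (0.91). Cadherin and catenin genes had a median of 0.79, but Cdh13, which encodes the adiponectin-binding T-cadherin, had 34 regions (2.88), 25 negative, and Ctnnd2 had 2.35. The lists differed in gene length and surroundings. The transcription list had a median length of 667 kb and a median flank density of 1.7, and the synaptic list 974 kb and 0.7. Among members under 1000 kb alone the medians were 2.47 (17 genes, or 3.05 in 15 without Nav3 and Lpp) and 0.79 (14 genes), against 1.09 for all 160 genes of that length. At that length the synaptic list lay above the axon guidance (0.61, 4 genes), channel (0.70, 15 genes) and cadherin lists (0.76, 5 genes).

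The other lists had medians from 0.69 to 1.63. Signalling genes had a median of 1.20, with 3 of 29 rich (Mast4, the guanine nucleotide exchange factor gene Kalrn at 2.83, and the polarity gene Pard3 at 2.57). Kalrn dropped to 2.33 and out of the rich group with close regions merged. Genes of common fragile sites had a median of 1.62 and spread over most of the range, from Naaladl2 (0.15), Lrp1b and Fhit (0.50) to Ptprg (2.78), Rad51b (3.29) and Wwox (3.85), with 3 of 16 rich. Receptor tyrosine phosphatase genes had a median of 0.86 (6 genes), with Ptprg, Ptprm (2.34) and Ptprt (1.06) highest. RNA-binding protein genes had 1.18 (4 genes), with Rbms3 (2.28), Rbfox1 (1.31) and Celf2 (1.06) highest. Matrix and glycosylation genes had 0.69, lower than the axon guidance and cadherin lists, and 0.87 in the 8 members under 1000 kb. St6galnac3, Hs6st3 (3.02) and Adamtsl1 (2.09) were highest and Galnt13 was empty. Of the markers of endothelial, mural and blood cells, 3 were long enough, Ptprm, Dock2 (1.63) and Elmo1 (1.17), and none was rich or poor.

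**Figure D5:**
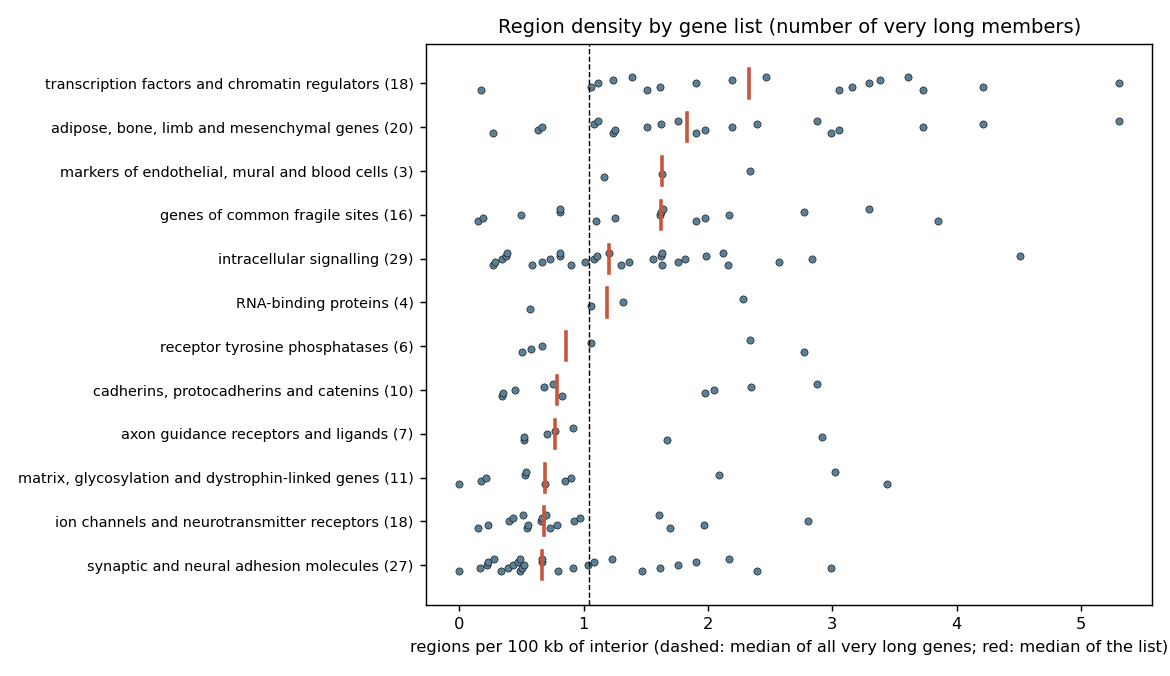
Regions per 100 kb of interior for the very long members of each gene list (points, number of members in brackets), with the median of the list in red and the median of all 215 genes dashed at 1.04. The transcription list has a median of 2.33 and the synaptic adhesion list one of 0.66, and both overlap widely with the others.

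Related genes could differ several-fold. Nrg1 and Nrg3, which encode neuregulin growth factors, are 1084 and 1108 kb long and had 19 regions (1.76 per 100 kb, 1.06 to 2.75) and 3 regions (0.27, 0.06 to 0.79). Foxp1 had 4.21 (2.73 to 6.22) against 1.12 (0.41 to 2.43) in Foxp2. Sox5 had 3.05 (2.04 to 4.38) against 1.24 (0.50 to 2.55) in Sox6, so that these intervals overlapped. Csmd2 had 1.91 (0.95 to 3.41), but Csmd1 0.49 (0.21 to 0.96) and Csmd3 0.17 (0.02 to 0.60). Robo1 and Robo2, receptors of Slit proteins, had 1.67 and 0.77, with overlapping intervals (0.97 to 2.68 and 0.40 to 1.35). The contactin-associated genes were thin throughout, with Cntnap2 at 0.49, Cntnap5a at 0.33, Cntnap5b at 0.28 and Cntnap5c at 0. These pairs were picked after their values were seen. Flank densities differed the same way for Nrg1 and Nrg3 (1.5 and 0.4 per 100 kb) and for Foxp1 and Foxp2 (2 and 0.7). They also did so for Sox5 and Sox6 (2.9 and 1.1) and for Csmd2, Csmd1 and Csmd3 (3.5, 0.7 and 0.3). Csmd2 was thus less dense inside than around it. Robo1 and Robo2 went the other way (0.9 and 1.6).

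Along the gene, regions were denser toward the 3′ end. For the 168 genes with a known strand, counting Schip1 but not Iqschfp, the 5 of 10 equal parts nearer the 5′ end held 775 regions (1.11 per 100 kb, 1.03 to 1.19) and the 5 nearer the 3′ end 989 (1.42, 1.33 to 1.51). The lowest of the 10 was the second (1.01), and the highest were the seventh and the last (1.54 each). The last also had the most strong regions, 36, against 8 to 23 in the others. Negative shares nearer the 5′ and the 3′ end were 71.7% (68.5 to 74.8) and 68.7% (65.7 to 71.5).

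Neighbouring regions inside a gene shared a sign most often when very close. Of 124 neighbouring pairs less than 1 kb apart, 116 had the same sign (93.5%, 87.8 to 96.7). At wider gaps the share was flat, with 61.7% at 1 to 5 kb, 63.4% at 5 to 20 kb, 61.6% at 20 to 100 kb and 60.4% beyond 100 kb. The excess of negative regions alone makes many pairs share a sign. That level was not computed, so the shares at wider gaps cannot be read as sign sharing. In protein-coding genes under 500 kb the shares were 95.6% under 1 kb, 66.6% at 1 to 5 kb and 62.8% beyond 100 kb. Only 6.17% of neighbouring pairs in very long genes were that close, and the median gap was 32.1 kb. The long runs in Zfhx3 and Frmd4a (positive) and in Grip1 and Lsamp (negative) stand in a set where 69.4% of regions are negative. Gaps within these runs were not summarised.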

How the data were processed

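Bisulfite sequencing of 2 libraries (1 CD137+, 1 PDGFRα+) was deposited as a list of differentially methylated regions. The authors' deposited list gives chromosome, start, end and a signed score per region, without a header. Per the submitters' processing notes, positions refer to mm10. The caller and its thresholds were not given in the sources used here. Depth per region is unknown. Regions were placed with a RefSeq gene table and start-site sequences of GRCm38.p6, the assembly mm10 names. Strand came from the start-site table and was known for 169 of 215 genes; 59 of 59 opposite-strand windows checked on chromosome 19 were reverse complements. Density is regions wholly inside a gene, over gene length less 2 kb at each end. Stretches in several very long genes were counted once in pooled values (2241 gene-region pairs, 2222 regions). The density of the rest was taken between the first and last annotated gene of each chromosome. Shares have Wilson and densities exact Poisson 95% intervals.

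Genes named were the 15 densest with at least 5 regions, the 10 longest, the empty ones, those with at least 5 regions of 1 sign, those with the 10 largest absolute scores, and the 3 densest and any empty member of each of 12 lists. Other genes were chosen later, and not all of them, for example Esrrg and Syne1, are marked as such where they appear. Some genes that met this rule are not reported here. Members and lists were chosen with earlier results of these data known. Counting was tested on simulated regions in the 215 genes, with 0 differences from direct counting. For neighbours, Iqschfp and 3 overlapping protocadherin gene models (Gm37013, Gm38666, Gm38667) were left out. Alternatives changed length, margin, score, width, merging, nested genes and the fullest gene. Python 3.11.15, pandas 2.3.3 and scipy 1.17.1 were used.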

Additional observations from a re-analysis of the deposited data

How the results depend on the processing

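Of 53 recalculations over 9 alternatives, 36 stayed inside the 95% counting interval of the reported value and 17 moved outside it. With a minimum gene length of 400 kb (337 genes) or 750 kb (105 genes), density was 1.37 and 1.05 per 100 kb and its ratio to shorter genes 0.749 and 0.576. At 750 kb the share of empty genes was 0, and 50 (400 kb) or 14 (750 kb) genes were rich in place of 29. A 20 kb margin gave a ratio of 0.631. With only regions of absolute score 100 or more, density was 0.143, the negative share 71.9%, the ratio 0.481, the empty share 47.0% (101 genes) and the rich share 21.4% (46 genes). With only regions at least 100 bp wide, density was 0.716, the negative share 71.7%, the empty share 6.51% (14 genes) and the share of strong regions 19.4%. The score filter kept 256 of the 2222 regions and the width filter 1280. Dropping regions can only lower densities and add empty genes, in the named genes too. Merging regions less than 1 kb apart gave a density of 1.17 and a strong share of 13.3%. The ratio to shorter genes was below 1 under each alternative. Leaving out Zfhx3 or the stretches in other genes moved no summary value outside its interval. Of 73 named genes, 69 changed density beyond their interval with strong regions only and 0 with the wider margin or merging, though merging ended the rich call of Tenm4 (2.31), Kalrn (2.33) and Syne1 (2.09). Without nested stretches 1 of 72 (Iqschfp) changed, and Schip1 had no stretch left. The median of the transcription list without Nav3 and Lpp, chosen after seeing the data, was 2.62. No paired analysis was possible because each group has 1 library. Depth per region is unknown, so which empty stretches could have held a region is not known.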
